A study of Mus musculus with 17 samples.

Results

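Integrins are the surface receptors with which T cells hold on to vessel walls, to tissue matrix and to epithelial cells. The genes described here are 9 integrin subunits chosen by symbol from the deposited count table of 27240 gene symbols: the alpha chains Itgae, Itga1, Itga4, Itgal, Itgav and Itgam, and the beta chains Itgb1, Itgb2 and Itgb7. All 9 had a row in the table, and all 9 passed the filter on low counts. They were measured by bulk RNA sequencing in 17 libraries of CD8 T cells sorted from mouse lung tumours. WT core (5 libraries) and KO core (6 libraries) came from core-enriched tissue, meaning macroscopic lung nodules. WT rim (2 libraries) and KO rim (4 libraries) came from rim-enriched tissue, meaning parenchymal nodules. KO is the label for mice that lack PD-L1 in the endothelium (PDL1DEC), so the deletion lies in vessel cells and not in the T cells that were sequenced. The sources used here do not give the Cre driver, the tumour model, the strain or the age of the mice, and the WT core library labelled pool is by its name a mixture.

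An integrin works as a pair of 1 alpha and 1 beta chain, and a chain can reach the surface only with a partner. Itgal and Itgb2 form LFA-1, which holds T cells to ICAM-1 on endothelium and on target cells. Itga4 pairs with Itgb1 as VLA-4, which binds VCAM-1 and fibronectin, or with Itgb7, which binds MAdCAM-1 on mucosal vessels. Itgae encodes CD103, which pairs with Itgb7 to bind E-cadherin and marks many tissue-resident CD8 T cells. Itga1 pairs with Itgb1 as VLA-1, a collagen receptor of resident cells. Itgav with several beta chains binds RGD ligands and can release active TGF-beta, and Itgam with Itgb2 forms Mac-1, best known from myeloid cells.

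Library totals ran from 21767045 to 32566456 counts, and levels are given as CPM, the count of a gene per 1000000 counts of its library, with library sizes scaled by TMM. Nothing in the labels says which libraries came from separate mice, so p-values measure a difference against the spread between libraries. No identifier is given for both WT core and WT rim, so the WT site comparison sets different identifiers against each other. Summed CPM of 10 T cell and CD8 markers was between 5088 and 9940 in WT core, 6046 and 9369 in KO core, 7272 and 7330 in WT rim and 8051 and 8392 in KO rim. By Xist and Y-linked transcripts, 4 libraries were male, and all 4 were KO (F322 and O at both sites). The WT core pool was mixed and the other 12 libraries were female, so the sexes were not balanced between genotypes. The sorted libraries also held transcripts of other cells. Summed CPM of 14 macrophage and monocyte markers was between 2025 and 6071 in WT core, 1990 and 5877 in KO core, 1217 and 2005 in WT rim and 695 and 8033 in KO rim. In bulk samples fewer cells of a type and less RNA per cell cannot be told apart.

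The WT rim libraries differed from each other in most of these genes, and this touches every comparison with them. Itgb1 stood at 296 CPM (H874) and 1565 (H877), Itga1 at 27.3 and 102, Itgal at 798 and 1673, and Itgb2 at 806 and 1722. Itgae went the other way, with 244 CPM (H874) and 118 (H877). Summed CPM of 7 natural killer cell markers, several of which effector CD8 T cells also express, was 410 (H874) and 2768 (H877). Most of this sum was Gzma, at 297 and 2258 CPM. Other marker lists differed between the same libraries. The 6 CD4 and regulatory T cell markers summed to 41.7 CPM (H874) and 182 (H877). The mean log2 CPM of 8 dendritic cell markers was 3.24 (H874) and 6.58 (H877), while their summed CPM was 3235.5 and 2086.3. Ccr7 made up most of the H874 sum, at 3185.8 CPM (H874) and 830 (H877). The other markers of this list were all lower in H874, among them Siglech at 13.4 CPM (H874) and 848 (H877). The part of such differences in cell make-up was not tested.

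Between genes, levels were compared per kilobase of annotated exon. Itgb2 had the highest mean in all 4 groups, at 396 CPM per kb in WT core, 394 in KO core, 414 in WT rim and 356 in KO rim. Its libraries lay above all those of the next subunit in WT core and overlapped with them in the other 3 groups, and in WT rim H874 Itgb7 (376 CPM per kb) exceeded Itgb2 (264). Itgb7 and Itgb1 came next and overlapped in every group. Itgb7 measured 190 CPM per kb in WT core, 250 in KO core, 401 in WT rim and 293 in KO rim, and Itgb1 measured 195, 304, 228 and 266 in the same order. Itgal came next in all 4 groups, at 136 to 188 CPM per kb, and its libraries lay above every library of the subunit ranked after it. Itgae and Itga4 followed and overlapped in each group, with Itgae ahead in WT core (56.9 against 29.5 CPM per kb), KO core (44.8 against 31.6) and KO rim (45.5 against 38.2) and Itga4 ahead in WT rim (56.9 against 39.5). Itgam followed, at 13.3 to 23.4 CPM per kb. Itga1 and Itgav were lowest and overlapped in each group, at 3.48 to 5.51 and 2.62 to 4.74 CPM per kb. Exon lengths count every annotated transcript, and with the length of the transcript with the longest coding sequence Itgb1 and Itgb7 exchanged places over all libraries while the other 7 kept their rank.

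Itgb7 was the subunit that differed between core and rim of WT tumours. It stood at 516 CPM (F164), 510 (H719), 483 (H873), 310 (H876) and 812 (pool) in WT core, and at 1041 (H874) and 1183 (H877) in WT rim. Every WT rim library lay above every WT core library. Mean CPM was 526.3 ± 181 in the 5 core libraries (SD) and 1112 ± 100.2 in the 2 rim libraries. The fitted log2 fold change of core over rim was -1.08 (SE 0.254, 95% interval -1.62 to -0.541, edgeR adjusted p = 0.0284). Itgb7 was the 1 member of 9 called in this comparison, where 3.86 percent of the 20137 genes tested were called. The call was lost without WT rim H874 (log2 fold change -1.17, adjusted p = 0.146), without WT rim H877 (-0.97, adjusted p = 0.12) and without WT core H873 (-1.04, adjusted p = 0.0592). With the macrophage marker level as a covariate it was also lost (-0.79, adjusted p = 0.24), and over all genes that covariate gave 48 calls in place of 777, with 46 in common.

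Itga4, which can pair with Itgb7, had a fitted difference of similar size that did not pass. It measured 381 CPM (F164), 296 (H719), 399 (H873), 514 (H876) and 470 (pool) in WT core, against 685 (H874) and 906 (H877) in WT rim. Again no core library reached the rim libraries. The log2 fold change of core over rim was -0.95 (SE 0.277, edgeR adjusted p = 0.0686). It passed with DESeq2 (adjusted p = 0.0207), which called 1907 genes in this comparison where edgeR called 777. Itga4 and Itgb7 were the 2 of 9 members whose WT core and WT rim libraries did not overlap, and 19.8 percent of all genes tested showed no overlap in this comparison. In KO tumours core and rim overlapped for both genes. Itgb7 ran from 511 to 854 CPM in KO core (median 711) and stood at 757 (F15), 916 (F322), 860 (F86) and 710 (O) in KO rim, with core over rim at -0.23 (log2, SE 0.204, adjusted p = 0.866). Itga4 ran from 235 to 607 CPM in KO core (median 451) and stood at 393 (F15), 608 (F322), 679 (F86) and 454 (O) in KO rim, with core over rim at -0.27 (log2, SE 0.221, adjusted p = 0.841). The test of the difference between the KO and WT site effects gave 0.85 (SE 0.332, adjusted p = 0.586) for Itgb7 and 0.68 (SE 0.361, adjusted p = 0.69) for Itga4, so the site effect was not shown to differ by genotype.

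**Figure D1:**
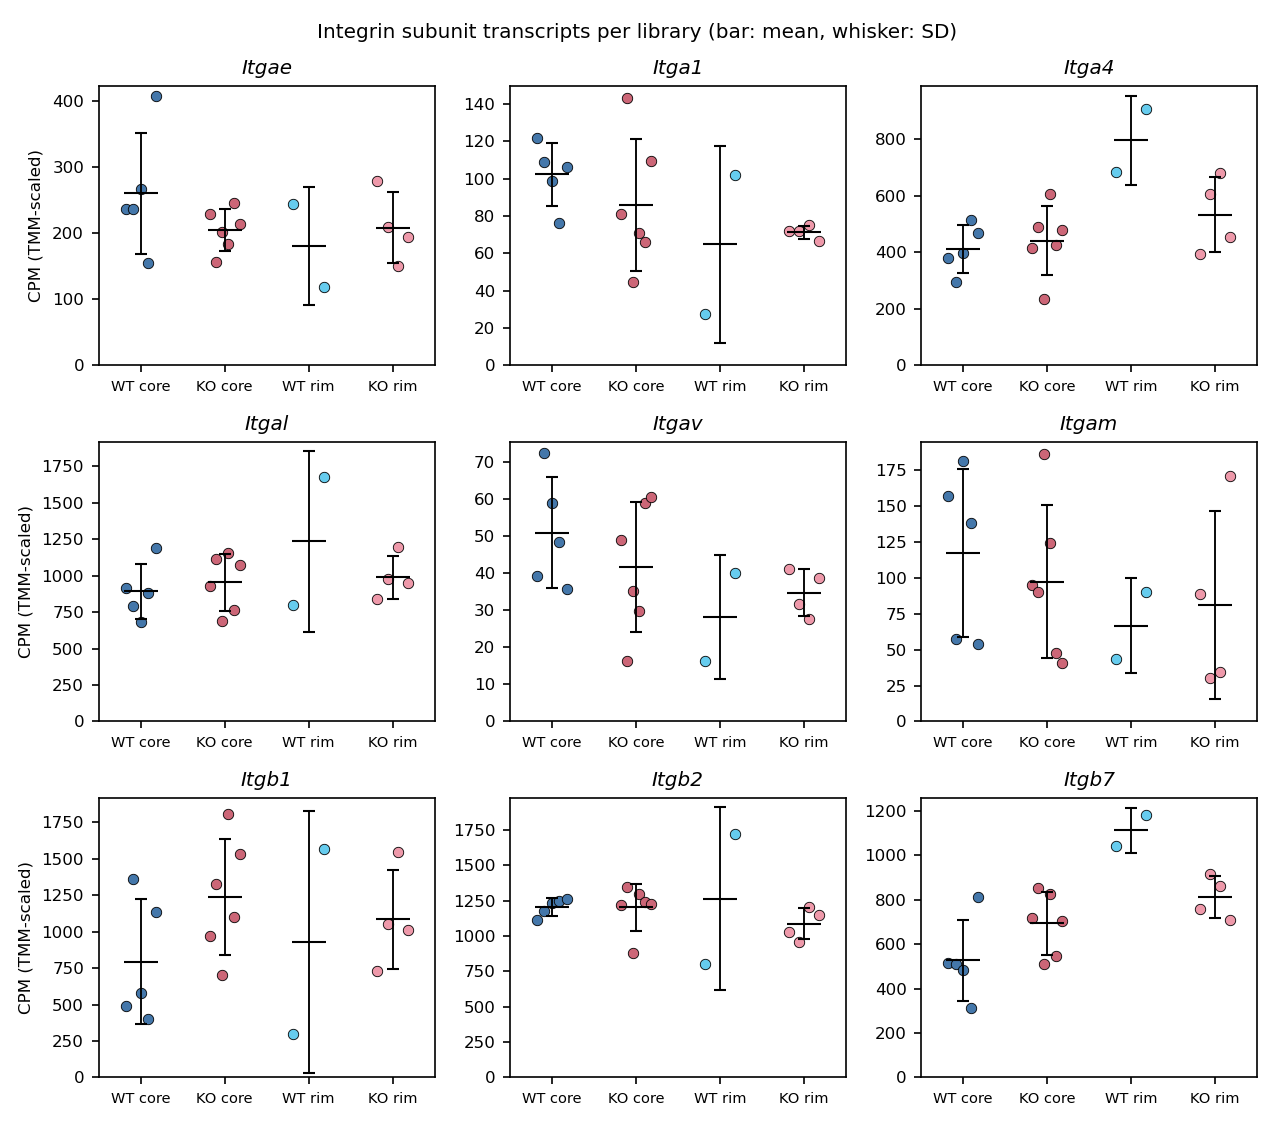
Level of the 9 integrin subunits in each of the 17 libraries, in CPM on TMM-scaled library sizes (vertical axis, starting at 0), by group (horizontal axis). Points are libraries, bars are group means and whiskers are SD. Both WT rim libraries lie above all 5 WT core libraries for Itga4 and Itgb7, where 19.8 percent of all genes tested did not overlap. The WT rim libraries lie far apart for Itgb1 (296 and 1565 CPM).

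Sequence upstream of Itgb7 and Itga4 is shown because these were the 2 of 9 members with WT core and WT rim apart. That separation does not single them out, as 19.8 percent of all genes tested showed it too. RefSeq (GRCm38.p6) gave an upstream window for 6 of the 9 members, namely Itga1, Itga4, Itgav, Itgam, Itgb1 and Itgb7. The windows hold the 250 bases before the annotated start, on the strand of the gene, and lie at chr15:102231936-102232185 (minus strand) for Itgb7 and chr2:79255176-79255425 (plus strand) for Itga4. Capitals mark CACCC or its reverse complement GGGTG, the core of sites that KLF factors bind, and TGTGGT or its reverse complement ACCACA, the core of RUNX sites.
Itgb7: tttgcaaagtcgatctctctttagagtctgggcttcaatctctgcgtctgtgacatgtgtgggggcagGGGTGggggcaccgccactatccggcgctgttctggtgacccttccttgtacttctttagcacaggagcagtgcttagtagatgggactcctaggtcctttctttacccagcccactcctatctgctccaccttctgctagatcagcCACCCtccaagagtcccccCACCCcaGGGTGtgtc
Itga4: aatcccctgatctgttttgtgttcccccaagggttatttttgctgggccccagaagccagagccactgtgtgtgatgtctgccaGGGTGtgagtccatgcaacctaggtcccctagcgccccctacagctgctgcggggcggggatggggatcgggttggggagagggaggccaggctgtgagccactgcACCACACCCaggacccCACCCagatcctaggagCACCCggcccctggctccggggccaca
Each window held 4 matches to CACCC over both strands, while the windows of Itga1, Itgav, Itgam and Itgb1 held 2, 1, 3 and 2. Itgae, Itgal and Itgb2 had no window to compare. At least 1 match was present in 52.0 percent of 32851 windows of the same length, and 4 or more in 2.1 percent. The cut of 4 equals the count in the 2 windows shown, so the 2.1 percent is a description and not a test. The RUNX core occurred once in the Itga4 window, where it overlaps a CACCC match, and in 14 percent of all windows. A match is a run of letters and not a measured binding site. The windows were not matched for base composition, and a link between matches and the site difference was not tested.

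Itgae, the CD103 alpha chain, was present in every library and was not called in any comparison. It stood at 237 CPM (F164), 237 (H719), 267 (H873), 155 (H876) and 407 (pool) in WT core. In KO core it ran from 157 to 245 CPM with a median of 208. In KO rim it stood at 280 CPM (F15), 210 (F322), 150 (F86) and 195 (O). All groups overlapped. The log2 fold change of core over rim was 0.53 (SE 0.326, adjusted p = 0.424) in WT and -0.024 (SE 0.244, adjusted p = 0.998) in KO, and that of KO over WT was -0.35 (SE 0.229, adjusted p = 0.961) in core and 0.21 (SE 0.331, adjusted p = 0.924) in rim.

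Set against its only partner chain, Itgae was most abundant in WT core. The ratio of Itgae to Itgb7, each per kb, was 0.278 (F164), 0.281 (H719), 0.334 (H873), 0.303 (H876) and 0.303 (pool) in WT core. It was 0.142 (H874) and 0.0603 (H877) in WT rim. In KO core it ran from 0.111 to 0.272 with a median of 0.188, and in KO rim it was 0.223 (F15), 0.138 (F322), 0.106 (F86) and 0.166 (O). Thus all 5 WT core libraries lay above all 12 other libraries, and the group means were 0.3 ± 0.0223 (SD, n = 5) in WT core, 0.189 ± 0.0606 (n = 6) in KO core, 0.101 ± 0.0574 (n = 2) in WT rim and 0.158 ± 0.0499 (n = 4) in KO rim. Of the 36 ratios that the 9 genes can form, this was the 1 that did not overlap between KO core and WT core, and 1 of 14 that did not overlap between WT core and WT rim. Among all pairs of 8922 genes with a mean of 10 CPM or more and a count in every library, 0.438 percent of ratios did not overlap between KO core and WT core, and 26.6 percent between WT core and WT rim. The ratios were looked at after the gene values were known and were not tested.

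**Figure D2:**
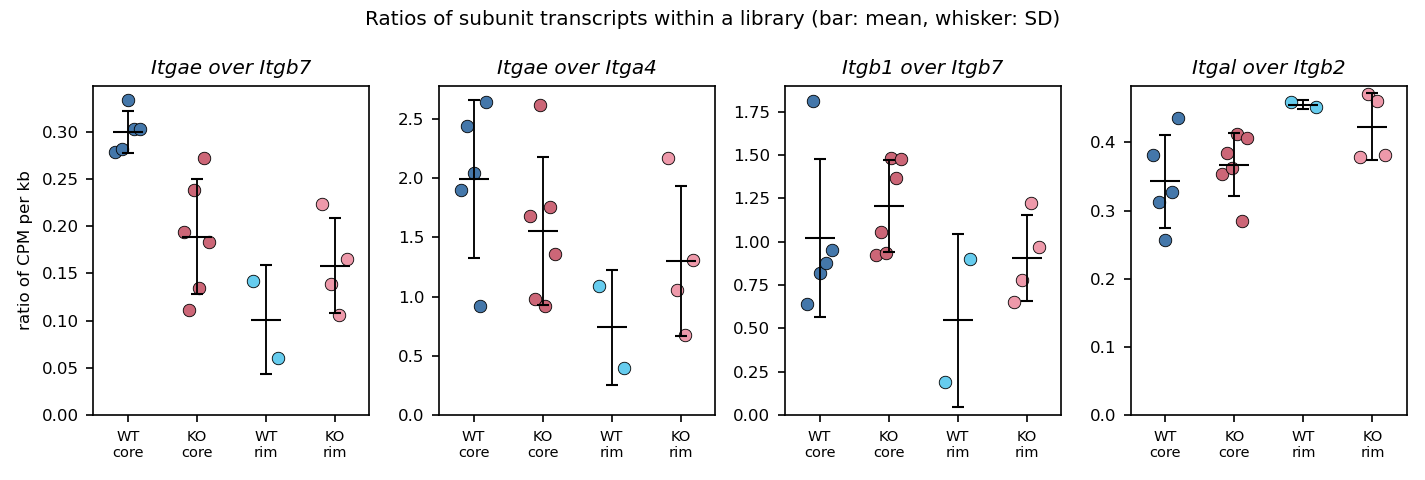
Ratios between subunit transcripts within each library (vertical axis, CPM per kb over CPM per kb, starting at 0) by group. Points are libraries, bars are means and whiskers are SD. The Itgae to Itgb7 ratio of the 5 WT core libraries (0.278 to 0.334) lies above every other library, while the other 3 ratios plotted overlap between KO core and WT core.

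Itga1, the collagen-binding chain of VLA-1, was among the lowest members. It measured 122 CPM (F164), 109 (H719), 98.9 (H873), 76.1 (H876) and 106 (pool) in WT core. In KO core it ran from 44.7 to 143 CPM (median 76.0), and in KO rim it lay between 66.7 and 75.1 CPM in all 4 libraries. Its level in WT rim (27.3 CPM for H874 and 102 for H877) decided the WT comparison. The log2 fold change of core over rim was 0.66 (SE 0.42, adjusted p = 0.439) with both libraries, -0.0003 without H874 and 1.92 (adjusted p = 0.0359) without H877. In KO it was 0.27 (SE 0.315, adjusted p = 0.918).

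Itgal and Itgb2, the chains of LFA-1, were high in every library. Itgb2 lay between 1113 and 1265 CPM in WT core and had a mean of 1208 ± 63.2 CPM (SD, n = 5). In KO core it ran from 881 to 1350 CPM (median 1233), and in KO rim it stood at 1032 (F15), 961 (F322), 1207 (F86) and 1150 (O). The fitted log2 values were -0.066 (SE 0.21, adjusted p = 0.924) for core over rim in WT, 0.15 (SE 0.163, adjusted p = 0.912) in KO, -0.0056 (SE 0.152, 95% interval -0.328 to 0.316, adjusted p = 1) for KO over WT in core and -0.22 (SE 0.216, adjusted p = 0.844) in rim. Itgal stood at 915 CPM (F164), 792 (H719), 684 (H873), 879 (H876) and 1186 (pool) in WT core, ran from 686 to 1155 in KO core (median 1001), and stood at 842 (F15), 974 (F322), 1195 (F86) and 946 (O) in KO rim. No contrast of Itgal passed, and its largest was core over rim in WT at -0.47 (SE 0.26, adjusted p = 0.364), which became 0.18 without WT rim H877. The ratio of Itgal to Itgb2 per kb was 0.46 (H874) and 0.451 (H877) in WT rim, above all 5 WT core libraries (0.257 to 0.436). It was 1 of the 14 of 36 member ratios without overlap there, beside 26.6 percent of all gene pairs compared. It was looked at after the gene values were known and was not tested. The WT rim libraries were alike in this ratio while both genes differed between them by more than 2-fold.

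Itgb1, the shared beta chain of VLA-1 and VLA-4, varied most between libraries of the same group among the abundant members. In WT core it measured 487 CPM (F164), 1360 (H719), 583 (H873), 401 (H876) and 1138 (pool). In KO core it ran from 705 to 1806 CPM (median 1215), and in KO rim it stood at 728 (F15), 1052 (F322), 1549 (F86) and 1013 (O). The WT core libraries fell into 3 low and 2 high values, and the high ones lay within the range of KO core. KO over WT in core was 0.64 (SE 0.398, adjusted p = 0.928), and the other 3 comparisons of groups lay between -0.23 and 0.22 with SEs of 0.422 to 0.568. The groups overlapped in each of them, and the test of whether KO over WT differed by site gave 0.42 (SE 0.683, adjusted p = 0.959). The ratio of Itgb1 to Itgb7 per kb, the beta chains that Itga4 can use, ran from 0.641 to 1.81 in WT core, 0.921 to 1.48 in KO core and 0.653 to 1.22 in KO rim, and was 0.193 (H874) and 0.899 (H877) in WT rim.

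**Figure D3:**
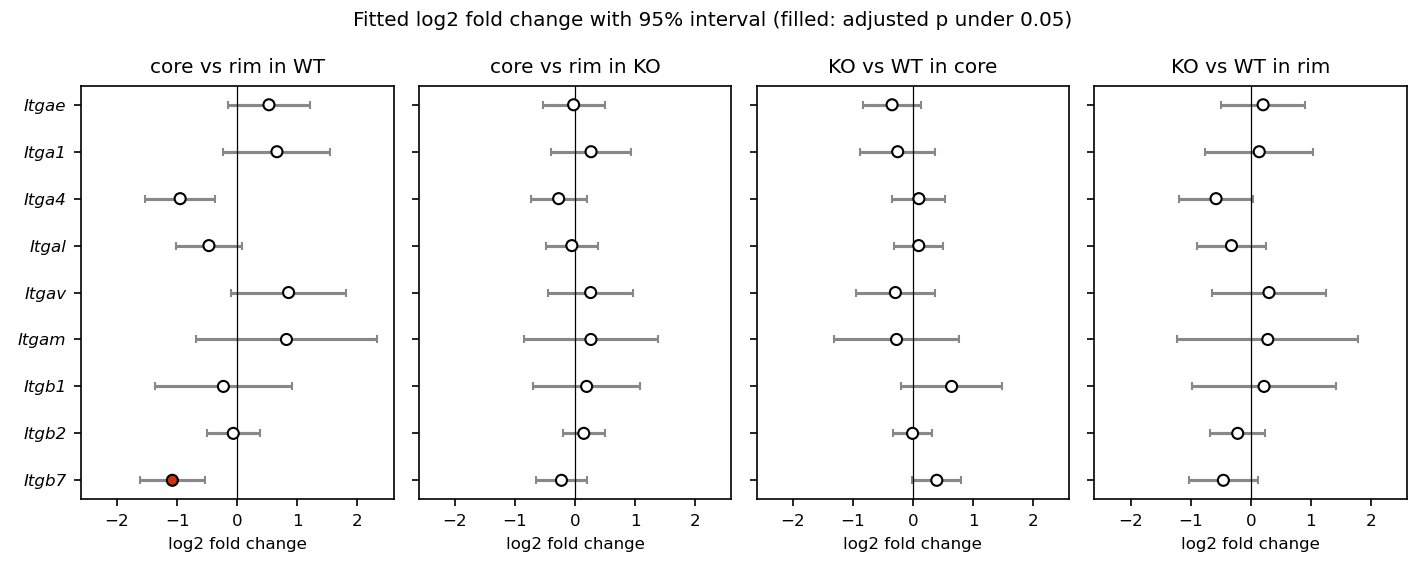
Fitted log2 fold change (horizontal axis) of each subunit in the 4 comparisons of groups, with 95% intervals as whiskers, from the model of all 17 libraries. The filled point passed at an adjusted p under 0.05 (Itgb7, core over rim in WT, -1.08), and the open points did not pass.

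Itgav, the alpha chain of RGD-binding integrins, was low throughout. It measured 39.2 CPM (F164), 72.3 (H719), 58.8 (H873), 48.5 (H876) and 35.8 (pool) in WT core, and 16.4 (H874) and 39.9 (H877) in WT rim. In KO core it ran from 16.2 to 60.6 CPM (median 42.1), and in KO rim it lay between 27.6 and 41.2 CPM. The log2 fold change of core over rim was 0.85 (SE 0.45, adjusted p = 0.341) in WT and 0.26 (SE 0.334, adjusted p = 0.93) in KO.

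Itgam, the Mac-1 alpha chain, followed the macrophage transcripts in the libraries. In WT core it stood at 157 CPM (F164), 57.5 (H719), 182 (H873), 138 (H876) and 53.8 (pool). In the same order the 14 macrophage markers summed to 6071, 2155, 5041, 5986 and 2025 CPM. In KO rim Itgam stood at 88.5 CPM (F15), 30.6 (F322), 34.6 (F86) and 171 (O), where those markers summed to 4456, 1196, 695 and 8033 CPM. High and low libraries were the same for both measures within these groups. Within KO core the measures ran less alike. Itgam there stood at 95.2 CPM (F219), 90.0 (F318), 186 (F319, the highest of all libraries), 124 (F322), 47.8 (F86) and 41.0 (O). The macrophage markers summed to 5877, 2019, 2664, 4801, 1990 and 2171 CPM in the same order. Over the 17 libraries, Itgam had r = 0.827 with the mean log2 CPM of the macrophage markers. With that of 8 neutrophil markers it had r = 0.745. In WT rim Itgam was 43.2 CPM (H874) and 90.0 (H877). The log2 fold change of core over rim in WT was 0.82 (SE 0.709, adjusted p = 0.582), and with the macrophage marker level as a covariate it was -0.96 (adjusted p = 0.379). Csf1r and C1qb, markers that define macrophages, were at means of 106 to 179 CPM and 22.6 to 247 CPM over the groups, and at most 2 of the 14 markers were at 0 in any library. A predicted gene on the same strand, Gm49368, shares 68.67 percent of the annotated exon bases of Itgam and has no row in the table, so how reads in that stretch were assigned is not known.

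**Figure D4:**
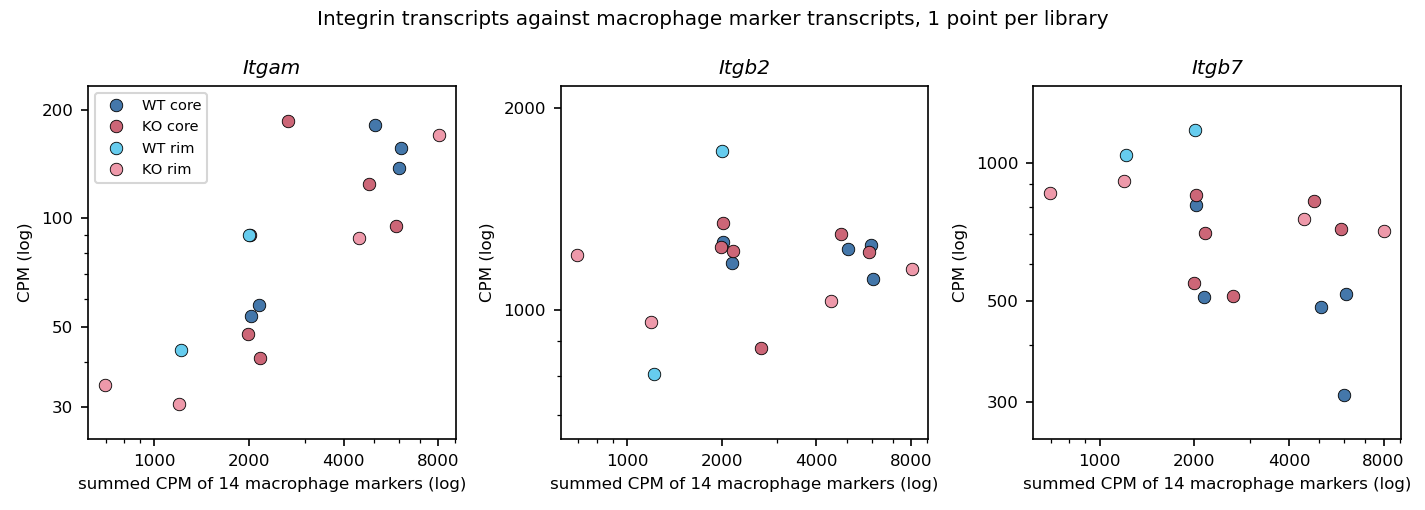
CPM of Itgam, Itgb2 and Itgb7 (vertical axis, log scale) against the summed CPM of 14 macrophage and monocyte markers (horizontal axis, log scale), 1 point per library, coloured by group. The libraries with the fewest macrophage transcripts, KO rim F322 and F86, had the least Itgam (30.6 and 34.6 CPM). Itgb7 was highest in the WT rim libraries, which held 1217 and 2005 CPM of these markers.

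Between genotypes, none of the 9 subunits passed at either site, where 0 percent of all genes tested were called in core and 0 percent in rim. In core the log2 fold changes of KO over WT lay between -0.35 (Itgae) and 0.64 (Itgb1) with a median of -0.006, beside -0.010 over all genes. Itgb7 had the smallest unadjusted p of the 9 in core, at 0.40 (SE 0.194, 95% interval -0.012 to 0.807, adjusted p = 0.812), the opposite sign to its -0.46 (SE 0.271, adjusted p = 0.725) in rim. No member separated KO core from WT core, as 0.392 percent of all genes did. In rim the changes lay between -0.58 (Itga4, SE 0.293, adjusted p = 0.694) and 0.30 (Itgav), with a median of 0.14 beside 0.011 over all genes. Itga4 and Itgb7 did not overlap between KO rim and WT rim, where both WT libraries were higher, and 13.7 percent of all genes did not overlap in that comparison. The genotype effect was called different between core and rim for 0 of the 9 members and for 0 percent of all genes. Core and rim of KO tumours likewise gave no call among the members (0 percent of all genes) and no member without overlap (1.6 percent of all genes). These counts come from edgeR. At an unadjusted p under 0.05 there were 1600 genes for core against rim in KO, 1244 for KO against WT in core, 1480 in rim and 1547 for the difference, and DESeq2 called 35, 9, 268 and 161.

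The other 17 integrin subunits were all measured, and 12 of them stayed below a mean of 10 CPM in every group. The remaining 5 were Itgax, which marks dendritic cells and macrophages (84.2 to 133 CPM over the group means), Itga6 (22.6 to 45.5), Itgb3 (32.2 to 44.5), Itga5 (9.70 to 25.9) and Itga2 (9.07 to 17.1). None of the 17 was called in any comparison. Their median log2 fold change of core over rim was 0.273 in WT and 0.569 in KO, beside 0.033 and 0.029 over all genes. Single values ran from -1.75 to 6.64 in WT and from -1.96 to 7.72 in KO. With 12 of the 17 genes below 10 CPM, these medians rest mostly on low counts.

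Genes that switch integrins on and tie them to the cytoskeleton moved in both directions between WT core and WT rim. Of 24 tested, 2 were higher in core and 3 lower, beside 3.86 percent called over all genes (422 higher and 355 lower of 20137). The list median was -0.102, beside 0.033 over all genes. Cyth1, which encodes cytohesin-1, a regulator of LFA-1 adhesion, was lower in core at 221 ± 34.5 CPM (SD, n = 5) against 498 ± 126 (n = 2), or -1.17 on the log2 scale (SE 0.185, adjusted p = 0.00484). Rasgrp2, the exchange factor that activates Rap1, was lower at 49.8 ± 12.2 against 152 ± 24.7 CPM (-1.60, SE 0.352, adjusted p = 0.0211). Apbb1ip, which encodes the Rap1 effector RIAM, was lower at 36.3 ± 3.15 against 55.9 ± 8.16 CPM (-0.62, SE 0.159, adjusted p = 0.0389). Rap1a and Rap1b themselves were not called, at 0.25 (edgeR adjusted p = 0.531) and -0.91 (edgeR adjusted p = 0.0941). No pathway was tested as a set. Higher in core were Fermt3, the blood cell kindlin that binds beta tails, at 292 ± 26.6 against 203 ± 34.7 CPM (0.52, SE 0.138, adjusted p = 0.0442), and Ilk, a linker from beta tails to actin, at 259 ± 13.6 against 187 ± 32.2 CPM (0.47, SE 0.125, adjusted p = 0.0473). For each of these 5 genes the KO means lay in the same order of core and rim, without a call.

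Of 16 integrin ligands tested, 1 was called between WT core and WT rim, where 3.86 percent of all genes were called, so a single call is near the background. The list median was 1.43, beside 0.033 over all genes. The called ligand was Spp1, osteopontin, a ligand of Itgav-containing integrins that macrophages make in quantity, at 318.9 ± 254 CPM (SD) over 5 core libraries against 5.09 ± 1.36 CPM over 2 rim libraries (log2 fold change 5.97, SE 1.29, adjusted p = 0.0196). All 14 macrophage markers also had fitted values above 0 in this comparison, and C1qb and C1qc were called higher. Their part in the Spp1 level was not tested. Icam1, the LFA-1 ligand that T cells also express, had group means of 212 to 246 CPM. Cdh1, the CD103 ligand E-cadherin, had means of 165 CPM in WT core, 192 in KO core, 63.6 in WT rim and 103 in KO rim and was not called. The VLA-4 ligands Fn1 (fibronectin) and Vcam1 were not called either. Fn1 had means of 393 CPM in WT core, 290 in KO core, 50.8 in WT rim and 217 in KO rim. Core over rim in WT was 2.95 (log2, edgeR adjusted p = 0.0883). Vcam1 had means of 67.4, 57.8, 19.2 and 44.5 CPM in the same order (1.81, edgeR adjusted p = 0.21). Madcam1 was too low to test. Icam1, Cdh1, Fn1 and Vcam1, and the 5 subunits named above, were chosen after their values were seen.

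Among 17 other adhesion and homing genes, 2 were higher and 1 lower in WT core than in WT rim, beside 3.86 percent called over all genes. S1pr1, the receptor that leads T cells out of tissue, was lower at 397 ± 131 CPM (SD, n = 5) against 1519 ± 697 (n = 2), or -1.93 on the log2 scale (SE 0.307, adjusted p = 0.00492). Crtam, an adhesion molecule of activated T cells, was higher at 160 ± 55.3 against 45.1 ± 4.52 CPM (1.82, SE 0.3, adjusted p = 0.00564), as was Cxcr3, a chemokine receptor of effector T cells, at 138 ± 21.8 against 71.4 ± 37.9 CPM (0.95, SE 0.248, adjusted p = 0.0429). No gene of these lists was called in the other comparisons.

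The genes whose log2 CPM ran most alike with each member were taken from 8986 genes averaging 10 CPM or more, by Pearson's r over the 17 libraries, with Spearman's rho beside it. The libraries share a scaling and 4 groups, so these values describe likeness only. For Itgam they were Fcgr2b (r = 0.959, rho = 0.953), Thbs1 (0.943, 0.944) and Cd14 (0.931, 0.929), all genes that macrophages express. For Itgb2 they were Dock5 (0.939, 0.814), Lgals1 (0.923, 0.816) and Klrk1 (0.922, 0.787), and for Itgal they were Ahnak (0.911, 0.821), Dock2 (0.869, 0.809) and Anxa6 (0.862, 0.782). Itgb1 ran with Triobp (0.892, 0.792), Zyx (0.872, 0.855), a protein of focal adhesions, and Tbx21 (0.869, 0.897), which encodes the effector factor T-bet. Itgb7 ran with Tm9sf2 (0.917, 0.904), Jak1 (0.913, 0.875) and Slc4a7 (0.903, 0.892), and Itga4 with Rmc1 (0.897, 0.87), Lpin1 (0.875, 0.865) and Atp2b1 (0.875, 0.804). Itgae ran with Igflr1 (0.847, 0.806), Itgb3bp (0.819, 0.718) and Cyb5a (0.814, 0.676), and Itga1 with Ndufaf7 (0.826, 0.728), Cchcr1 (0.823, 0.6) and Rasgef1a (0.82, 0.689). Itgav ran with Prim2 (0.854, 0.841), Rnaseh2b (0.825, 0.74) and Cenph (0.82, 0.767), genes of DNA replication and chromosome segregation. Among the members themselves the highest r was between Itga4 and Itgal (0.726, rho = 0.657), and Itga4 and Itgb7 gave 0.644 (rho = 0.743).

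On the GRCm38 annotation, Itgal (chromosome 7, 127296260 to 127335138) and Itgam (chromosome 7, 128062640 to 128118491) lie on the plus strand of the same chromosome, Itgam next to Itgax and Itgad. Itga4 (chromosome 2, 79255426 to 79333123) and Itgav (chromosome 2, 83724397 to 83806916) share another. Itgae lies on chromosome 11 (73090583 to 73147446), Itga1 on 13 (114953096 to 115101964), Itgb1 on 8 (128685654 to 128733200), Itgb2 on 10 (77530252 to 77565708) and Itgb7 on 15 (102215995 to 102231944). Cerkl, on the opposite strand, shares 8.04 percent of the annotated exon bases of Itga4. It had 1633 counts in all libraries together, against 210838 for Itga4.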

How the data were processed

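Per the submitters' processing notes, the tools were HISAT2, featureCounts, Subread 2.0.0, Bowtie2 2.4.5 and cutadapt 3.2, with the builds GRCm38 and mm10. The sources used here do not give their order or settings, strandedness included. The authors deposited whole-number counts by gene symbol that were not normalized, and each column matched 1 labelled sample. From these counts, genes were kept by filterByExpr (20137 of 27240), and libraries were scaled by TMM. A quasi-likelihood model of 4 group means was fitted to all 17 libraries in edgeR 4.0.16 (R 4.3.3), with robust dispersion and two-sided F tests. Benjamini-Hochberg adjustment covered all 20137 genes, and calls were made below an adjusted p of 0.05. The SE is the log2 fold change divided by the square root of F. Log2 CPM used a prior count of 2. The scripts were tested on simulated data.

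The members and lists were chosen with earlier results of these data known. Named genes are all members, called genes of 4 pathway lists (at most 6 per list and comparison) and the 3 genes most correlated with each member. Gene positions and exon lengths come from GENCODE M21 (GRCm38). Alternatives were RLE scaling, DESeq2 1.42.0, no filter on low counts, each library left out, an identifier block (limma 3.58.1), female libraries only and a macrophage covariate. Another exon length was added after seeing the data.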

Additional observations from a re-analysis of the deposited data

Results flagged for a closer look

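Itgb2 in KO core F319 stood apart from its group. It measured 880.7 CPM, below the other 5 KO core libraries, whose lowest was 1223 CPM, and the gap took up 0.769 of the range of the group on the log2 scale. It was the 1 such value among 27 groups of 4 to 6 libraries examined, and chance flags about 1 in 20. Without F319 the log2 fold change of KO over WT in core for Itgb2 was 0.081. F319 also had the lowest Itga4 (235 CPM) and the highest Itgam (186 CPM) of the 17 libraries.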

How the results depend on the processing

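RLE scaling turned no sign and changed no call among the 45 member values (9 genes in 5 comparisons). WT rim has only 2 libraries, and every comparison with it rests on them. The identifiers F322, F86 and O occur at both KO sites, but the deviations of same-named libraries from their group means correlated by 0.072, 0.045 and 0.082. Each identifier had the same sex at both sites, and 1 of the 3 rim libraries (F322) matched its own core library best. The labels do not say whether an identifier is 1 mouse, which was not settled here, and the paired fits are given as alternatives. Besides the losses of the Itgb7 call given above, Itga4 in WT core against rim passed without KO core F319 (adjusted p = 0.0258) as well as in DESeq2.

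Genes called over the whole table for core against rim in WT (777) became 1907 with DESeq2, 313 in female libraries and 48 with the macrophage covariate, and 68 (without WT rim H874) to 851 when a library was left out. The count was also 500 without WT core H719 and 411 without WT core H873. The other counts were 0. DESeq2 raised them to 35 for core against rim in KO, 9 for KO against WT in core, 268 in rim and 161 for the difference. Without the filter they were 2 in rim and 4 for the difference. The replicate block in limma voom gave 2 for core against rim in KO and 9 for KO against WT in rim, and the covariate gave 3 in rim. Leaving out a library gave 0 to 26 in rim (26 without KO rim F322, 23 without WT rim H877, 13 without WT core H719, 9 without WT core H876, 4 without WT rim H874, 1 without KO core F86) and 0 to 14 for the difference (14 without WT rim H877 or KO rim F322, 5 without WT core H876 or WT rim H874, 2 without the WT core pool, 1 without KO core F86). In these 4 comparisons no member was called under any setting.

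Signs of uncalled members turned as follows, and the cause was not tested. With the replicate block, core over rim became 0.054 (Itgb1) and 0.040 (Itgb2) in WT, and 0.0059 (Itgae) in KO, or 0.20 for Itgae with the 3 shared identifiers paired. In female libraries it became -0.15 for Itgb1 in KO, while KO over WT became -0.025 for Itga4 in core and -0.12 for Itgam in rim. Without the filter Itgb2 became 0.0021 for KO over WT in core. With the macrophage covariate Itgam became -0.96 for core over rim in WT, 0.14 and -0.93 for KO over WT in core and rim, and 1.08 for the difference, Itgb1 became 0.38 for core over rim in WT and -0.021 for the difference, and Itgal 0.0093 for core over rim in KO.

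Leaving out 1 library gave these ranges for members whose sign turned. For core over rim in WT they were -0.0003 to 1.92 (Itga1), -0.91 to 0.18 (Itgal), -0.99 to 1.43 (Itgb1) and -0.51 to 0.60 (Itgb2), and in KO -0.16 to 0.15 (Itgae), -0.11 to 0.047 (Itgal) and -0.029 to 0.92 (Itgam). For KO over WT in core they were -0.031 to 0.24 (Itga4) and -0.046 to 0.081 (Itgb2). In rim they were -0.21 to 0.82 (Itgae), -0.52 to 1.40 (Itga1), -0.76 to 0.33 (Itgal), -0.20 to 1.10 (Itgav), -0.37 to 0.92 (Itgam), -0.53 to 1.89 (Itgb1) and -0.67 to 0.45 (Itgb2). For the difference they were -1.66 to 0.26 (Itga1), -0.23 to 0.85 (Itgal), -1.21 to 0.12 (Itgam), -1.24 to 1.18 (Itgb1) and -0.46 to 0.66 (Itgb2).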
